A study of Drosophila melanogaster with 40 samples.

Results

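The genes Egfr and ths each carried 1 of the 103 final binding peaks of the repressor Capicua (Cic) in Drosophila embryos of early nuclear cycle 14. The pair of peaks was taken by gene name, as the rows of the authors' final peak list annotated to Egfr or ths, together with their columns in the 6 deposited signal matrices. Both are genes of receptor tyrosine kinase signalling: Egfr encodes the epidermal growth factor receptor of the fly, and ths (thisbe) encodes a secreted fibroblast growth factor ligand. The peaks were nearly equal in no light and wild type embryos. In the other 4 conditions coverage at ths was above that at Egfr beyond counting error. It was 1.32 times as high after 1 min of light, 1.31 after 5 min, 2.00 after 30 min and 1.83 with active Torso. Cic signal at Egfr fell to 16.1% of its no light level after 30 min of light and ths kept 28.8%. With a constantly active Torso receptor, Cic signal was 2.59-fold lower than in wild type at Egfr and 1.53-fold lower at ths. These values are relative to noise peaks. As shares of the summed coverage of all final peaks, Egfr kept 0.534 and ths 0.958 of the no light value after 30 min, and with active Torso Egfr had 0.753 and ths 1.28 times the wild type share.

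Cic is an HMG-box protein that represses target genes until ERK phosphorylates it, after which it leaves the DNA and the nucleus. Receptor tyrosine kinases such as Egfr and Torso activate ERK through Ras, Raf and MEK. Egfr patterns the ventral and lateral ectoderm after ligands such as Spitz reach it, while the ligand Ths, made in the ectoderm, acts with its relative Pyramus (pyr) through the receptor Heartless (htl) on the spreading mesoderm.

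Binding was measured by ChIP-seq with an antibody to GFP in whole embryos that were gathered over 3 to 4 h without light, fixed for 15 min and then picked by stage. Wild type embryos had the genotype (+/+); (CicsfGFP/+), with a GFP-tagged Cic over an untagged chromosome. Optogenetic embryos, (UAS-OptoSOS/gal4);(CicsfGFP/gal4), carried OptoSOS, a construct that recruits the Ras activator SOS to the membrane under blue light, driven by the maternal triple driver MTD gal4, and were kept dark or lit for 1, 5 or 30 min before fixation. Embryos of the genotype (TorD4021/+);(cicsfGFP/+) had the constantly active receptor and the same tag, and OreR embryos (+/+) without a tag gave the background of the antibody. Each group had 3 ChIP and 3 input libraries, except the 1 min group with 2 of each, and each tagged group has 1 signal matrix in which the replicates were already combined. No replicate error can therefore be given, no test across samples was possible, and the intervals below are 95% intervals of counting error alone. In whole embryos, fewer nuclei with bound Cic and less Cic per nucleus cannot be told apart.

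The Egfr peak spanned 624 bp of chromosome 2R, from 21523540 to 21524163 in the build dm6, with its summit at 21523964. It lay in intron 1 of 4 of the transcript FBtr0071653, which starts at 21522420, and its summit was 1544 bp inside the gene. The ths peak spanned 477 bp of the same arm, from 11794246 to 11794722, with its summit at 11794485. The authors placed it in intron 3 of 4 of the transcript FBtr0304622 and measured its distance, 3880 bp, from the start of the shorter transcript FBtr0088030 at 11790366. RefSeq gives ths a gene body of 57608 bp and Egfr one of 37558 bp, so both peaks were intronic and near the start of a transcript of the gene, as the map of both loci shows.

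**Figure D1:**
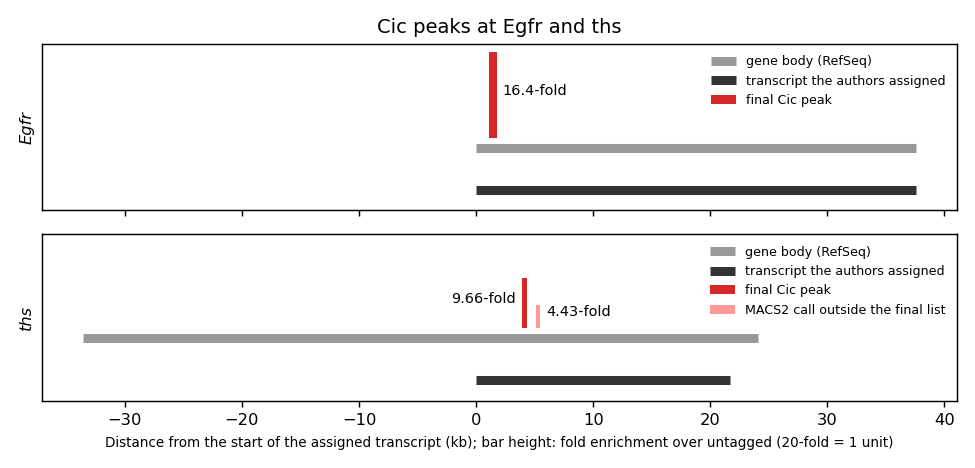
Map of both loci. The horizontal axis is the distance in kb from the start of the transcript the authors assigned, grey lines are RefSeq gene bodies, black lines the assigned transcripts, and bars the MACS2 calls at their true width with a height proportional to the authors' fold enrichment. Egfr has 1 call at 16.4-fold, and ths has a final peak at 9.66-fold and a call outside the final list at 4.43-fold.

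In wild type embryos the peaks were equally tall but stood on unequal backgrounds. The summit pileup, the read coverage after extension that the authors deposited, was 147 at Egfr and 154 at ths, ranks 16 and 14 of 103. The authors' fold enrichment over untagged embryos was 16.4 at Egfr, rank 12 of 103, and 9.66 at ths, rank 35. The median of the final list was 7.19. Pileup and fold enrichment together give the background that the peak caller set against each peak, here called the local untagged level. It was 8.0 at Egfr and 15.0 at ths, on the scale of the pileup. The median peak had 8.55, the highest 22 and the lowest 6.90. The untagged level was thus higher at ths, rank 7.5 of 103 with ties averaged, than at Egfr, rank 64, and its part in the ths signal of the other conditions was not tested.

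No other MACS2 call lay within 100 kb of the Egfr peak. At ths a further call was made 1209 bp downstream, from summit to summit, at 11795502 to 11795826. Its fold enrichment was 4.43 and its -log10 q was 12.6, and it was not in the final list, whose lowest fold enrichment was 5.02. The gene pyr, which encodes the other ligand of Htl, lies 30472 bp upstream of ths and had no call within 50 kb.

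Signal was read from the deposited matrices as coverage over noise, the read coverage within 250 bp of the window centre divided by the mean coverage of the authors' noise peaks of the same condition. A z-score, the authors' own scale, is given beside it and is 0 at the mean of the noise peaks. At Egfr coverage over noise was 11.1 in wild type, 13.6 in no light, 14.5 after 1 min, 3.99 after 5 min and 2.18 after 30 min of light, and 4.27 with active Torso. The Egfr z-scores in the same order were 14.1, 17.1, 14.8, 3.97, 1.48 and 4.36. Wild type, no light and 1 min were thus high at Egfr, and 5 min, 30 min and active Torso low, with 30 min lowest.

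At ths coverage over noise was 11.96 in wild type, 15.1 in no light, 19.0 after 1 min, 5.21 after 5 min and 4.36 after 30 min of light, and 7.81 with active Torso. The ths z-scores were 15.3, 19.2, 19.9, 5.59, 4.20 and 9.08. The same 3 conditions were high at ths, but active Torso stood between them and the 5 and 30 min conditions. Central windows held the equivalent of 52.2 reads of 74 bp at Egfr after 30 min, 104 at ths after 30 min, and 406 and 452 in no light, so the values after long light are the least precise.

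**Figure D2:**
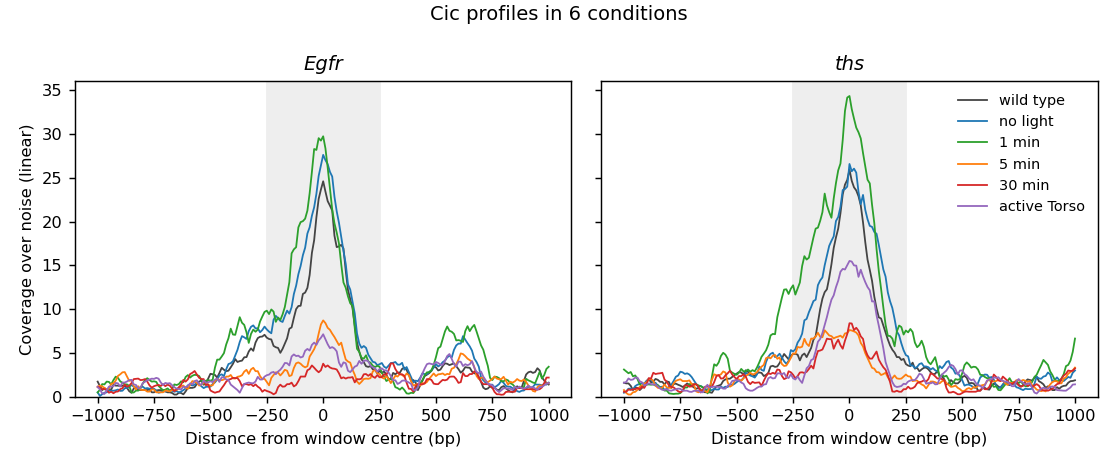
Profiles of Cic signal at Egfr and ths. The horizontal axis is the distance in bp from the centre of each deposited window, the vertical axis the coverage over noise on a linear scale, lines are the 6 conditions, and the grey band marks the central 250 bp on either side. The highest points at Egfr lie at 24.6 to 29.7 in wild type, no light and 1 min and at 3.78 to 8.72 in the other conditions, while active Torso at ths reaches 15.5.

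Profile shapes differed between the peaks. At Egfr the summit was narrow, with a width at 50% of its height of 180 bp in wild type and 220 bp in no light, and had a shoulder on the upstream side. That shoulder, 200 to 400 bp before the centre and singled out after the profiles were seen, had a coverage over noise of 7.25 in no light, 2.46 after 5 min and 1.18 after 30 min. It was thus 6.15-fold lower after 30 min (3.23 to 11.9), where the central window was 6.22-fold lower. The shoulder and the central window share the stretch 200 to 250 bp before the centre, so the 2 folds are not independent. A smaller rise 500 to 700 bp downstream of the centre, singled out in the same way and without a MACS2 call of its own, had 3.16 in wild type, 4.79 in no light, 6.89 after 1 min, 3.30 after 5 min, 2.14 after 30 min and 3.75 with active Torso. It was 1.45-fold lower after 5 min than in no light (0.936 to 2.23), where the centre was 3.41-fold lower (2.75 to 4.27). With active Torso the downstream rise had 1.19 times its wild type coverage (0.756 to 1.92), whereas the centre had 0.386 times (0.312 to 0.477). As the stretch was picked for how it looked, these values are a description.

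At ths this width was 200 bp in wild type, 290 bp in no light, 280 bp after 1 min and 250 bp with active Torso. After 5 min the ths profile was low and broad, 370 bp wide with a highest coverage of 7.62. In all 6 conditions the highest window of both genes was the central one, so a window can be placed differently in each condition, and such placing can raise weak signals. Aligned by shape to no light, the ths window lay 110 bp away after 5 min and within 30 bp in the other conditions, and the Egfr windows lay within 30 bp in all conditions. The alignment of Egfr after 30 min was poor, with a correlation of 0.533 between the 2 profiles across windows.

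**Figure D3:**
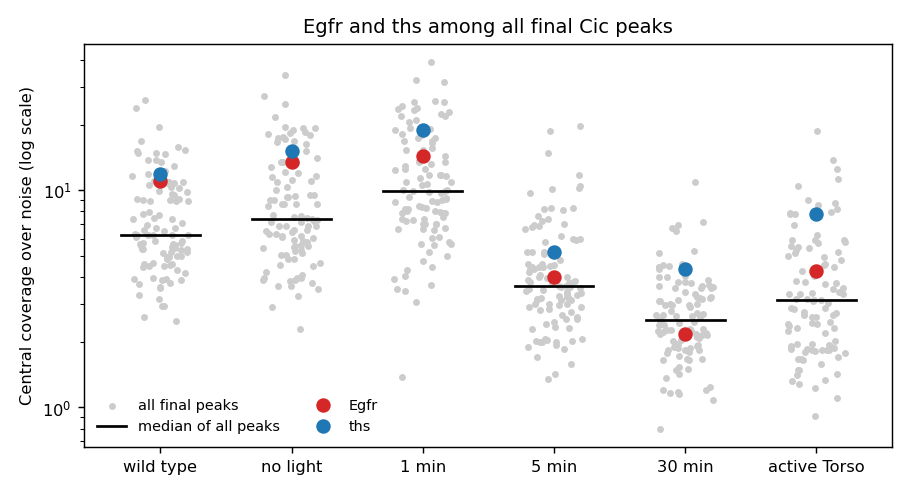
Central coverage over noise of Egfr, ths and all 103 final peaks in each condition, on a log scale. Grey points are peaks, spread sideways at random for view, and black bars their medians. Egfr and ths lie side by side above the median in wild type and no light, and after 30 min Egfr (2.18) is below the median of 2.54 and ths (4.36) above it.

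No light embryos had slightly more Cic signal than wild type at both genes. The ratio of coverage over noise was 1.23 at Egfr (1.05 to 1.43) and 1.27 at ths (1.09 to 1.46). Both intervals lay above 1, as did those of 46.6% of all final peaks, and the median ratio of all peaks was 1.19. The members were therefore near the middle of the list, at ranks 60 and 68 of 103 from the lowest ratio. With scaling to all final peaks the ratios were 1.01 at Egfr and 1.04 at ths, and with the highest window alone 1.12 and 1.03, all with intervals that included 1. Line and library cannot be told apart in this comparison. Between no light and wild type the ratio of single peaks had a 5th to 95th percentile range of 0.807 to 1.55. It is the closest measure in these data of how far peaks differ without light or active Torso. It includes counting error of weak peaks, and ERK activity in the 2 lines was not measured here.

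After 1 min of light the calls depended on the scaling. Relative to noise, the ratio to no light was 1.26 at ths (1.09 to 1.45), near the median of 1.26, and 1.06 at Egfr (0.910 to 1.24), rank 12 of 103 from the lowest. The interval of ths was above 1, as for 63.1% of all peaks, and that of Egfr included 1. On the z-score scale Egfr was lower after 1 min by 2.22 and ths higher by 0.713, so the direction at Egfr depends on the scale. With scaling to all final peaks Egfr was at 0.837 (0.716 to 0.976), lower beyond counting error, and ths at 0.989 (0.860 to 1.14). Fixation lasted longer than the pulses of 1 and 5 min.

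After 5 min both genes were lower than in no light. Egfr was 3.41-fold lower than in no light (2.75 to 4.27), rank 8 of 103, and ths 2.91-fold lower (2.40 to 3.54), rank 17. Both were at least 2-fold lower, as were 51.5% of all final peaks, whose median was 2.02-fold. With scaling to all final peaks neither was 2-fold lower, with ratios of 0.606 at Egfr (0.484 to 0.749) and 0.710 at ths (0.583 to 0.860), and the count of such peaks dropped from 53 to 4. The ratio of ths to no light was 1.17 times that of Egfr (0.881 to 1.56), which does not separate the members beyond counting error. Among the 6 peaks nearest to each in no light signal, none fell further than Egfr, and the peaks that fell further than ths were Egfr and tld, a BMP processing protease gene.

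After 30 min the members differed beyond counting error. Egfr was 6.22-fold lower than in no light (4.67 to 8.51), rank 13 of 103, and ths 3.47-fold lower (2.80 to 4.35), rank 41 and near the median of 3.11-fold. Both were at least 2-fold lower, as were 79.6% of all final peaks. Among the 6 peaks nearest to each in no light signal, bbg (6.97-fold) fell further than Egfr. At 5 of the 6 nearest to ths, Egfr among them, signal fell further than at ths. When each condition was scaled to the summed coverage of the final peaks instead of noise, Egfr kept 0.534 of its no light share (0.391 to 0.711) and ths 0.958 (0.765 to 1.19). With flanks subtracted Egfr kept 0.0908 of its no light level (0.0505 to 0.163). The ratio of ths was 1.79 times that of Egfr (1.25 to 2.57). In this quantity the noise scaling of each condition cancels, since both peaks come from the same matrices. It is no larger than the gap between the ends of the 0.807 to 1.55 range of single peaks between no light and wild type. That gap is not the spread of such a ratio over pairs of peaks, which was not measured. Between 5 and 30 min Egfr was lower by a further 1.83-fold (1.30 to 2.60), while at ths the 30 min level was 1.19-fold lower than the 5 min level with an interval that included 1 (0.922 to 1.56). Neither member was 2-fold lower in this step, where 19.4% of all peaks were and the median peak was 1.47-fold lower. The difference between the members in this last step was at the limit of counting error, with a ratio of 1.53 (1.01 to 2.32), and its interval included 1 with a 500 bp half-width (1.29), alignment by shape (1.52) or flanks subtracted (1.63). With scaling to all final peaks Egfr was at 0.882 in this step (0.620 to 1.24), and ths was higher at 30 min, at 1.35 (1.03 to 1.75).

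With constantly active Torso Egfr was 2.59-fold lower than in wild type (2.096 to 3.21), rank 31 of 103, and ths 1.53-fold lower (1.29 to 1.82), rank 81. Of all final peaks 60.2% were at least 2-fold lower, a count that included Egfr and not ths, and the median peak was 2.20-fold lower. With scaling to all final peaks the direction at ths turned, to 1.28 times its wild type share (1.07 to 1.52), and Egfr was at 0.753 (0.608 to 0.932). The ratio of ths to wild type was 1.69 times that of Egfr (1.30 to 2.21), beyond counting error. It was again no larger than the gap between the ends of the single peak range, which is not a spread over pairs. Of the 6 peaks nearest to each in no light signal, none was lower than wild type by a larger fold than Egfr. For ths 5 were, Egfr among them, which is to be read beside the rank of 81 of 103 that ths had over all final peaks.

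The light and Torso conditions differed at ths. After 5 min of light ths had 0.667 times the signal it had with active Torso (0.536 to 0.825), rank 3 of 103 from the lowest, whereas the median peak had 1.20 times as much signal after 5 min as with active Torso. Of all final peaks 3.88% were lower after 5 min beyond counting error. Egfr was 1.07-fold lower after 5 min than with active Torso, with an interval from 0.825 to 1.40 that included no difference. After 30 min both were lower than with active Torso, Egfr by 1.96-fold (1.41 to 2.77) and ths by 1.79-fold (1.42 to 2.29), and 36.9% of all peaks were lower beyond counting error. The OptoSOS and Torso embryos were of different lines, and line and ERK input cannot be told apart here.

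**Figure D4:**
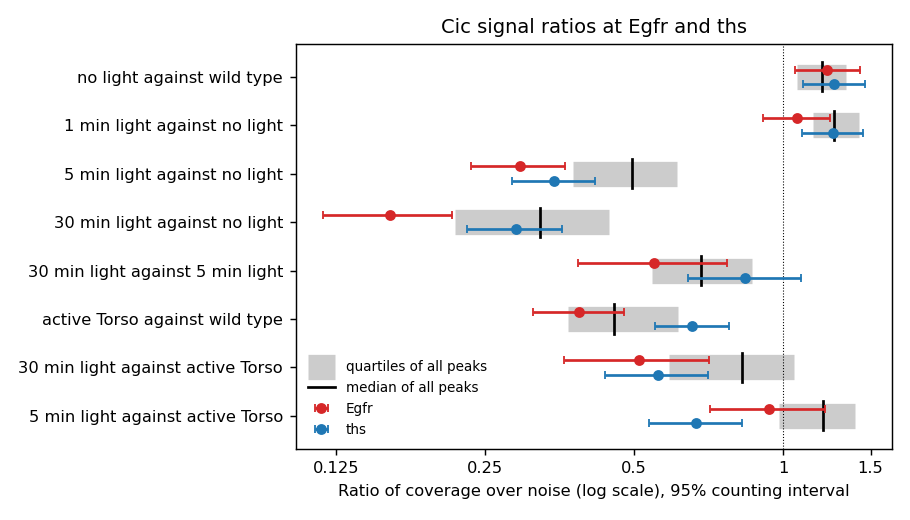
Ratios of coverage over noise at Egfr and ths in the 8 comparisons, on a log scale. Points are the members with 95% counting intervals, grey bars the quartiles and black ticks the medians of all 103 final peaks, and the dotted line marks no difference. The Egfr point at 0.161 after 30 min lies left of the quartiles, and the ths point at 0.667 for 5 min against active Torso lies well left of its quartiles.

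Coverage at ths relative to Egfr in each condition sums up these steps. It was 1.08 in wild type (0.920 to 1.27) and 1.11 in no light (0.972 to 1.28), which are not told apart from equality. The 1 min value was 1.32 (1.12 to 1.54) and the 5 min value 1.31 (1.01 to 1.70). At 30 min ths had 2.00 times the coverage of Egfr (1.42 to 2.85), and active Torso gave a value of 1.83 (1.47 to 2.29).

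Other genes of the receptor tyrosine kinase and ERK pathway were set beside the pair from a list of 51 genes. By symbol, final peaks were annotated to 8 of them, with 12 peaks in all. The symbol Gap1 of the list was not matched. A final peak annotated to RasGAP1, another name of that gene, was therefore left out of the counts and medians below. Of the 14 ligand genes listed ths was the sole one with a final peak, and of the 7 receptor genes listed Egfr was. The insulin receptor gene InR, also a receptor tyrosine kinase gene, was not in the list and had final peaks (InR peak 1 and InR peak 2). None of the genes pyr, bnl, htl, btl and stumps, which encode other ligands, the receptors and an adaptor of fibroblast growth factor signalling, had a MACS2 call within 10 kb. Outside the final list the Egfr ligand genes spi and Krn had a call within that distance. The share of all genes with a final peak or such a call was not measured. These counts therefore do not show whether the list has many or few peaks. The remaining final peaks belonged to S (Star), needed to process Egfr ligands, to the nuclear factor genes pnt and cic, and to the feedback inhibitor genes aos, sty and Mkp3.

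After 5 min the other 10 peaks were lower than in no light by a median of 1.78-fold, against 3.41-fold at Egfr and 2.91-fold at ths, and 3 of the 10 were at least 2-fold lower, against 51.5% of all final peaks. The single peak with a lower ratio than Egfr was aos peak 2, at 3.42-fold lower, beside Mkp3 at 3.33-fold. Over all 103 final peaks the median was 2.02-fold, and Egfr ranked 8 from the lowest ratio. After 30 min the median of the other 10 was 3.62-fold, where that of all 103 final peaks was 3.11-fold. Of the 10, 2 had a lower ratio than Egfr (rank 13 of 103), namely pnt peak 1 and pnt peak 2. A lower ratio than ths (rank 41 of 103) was seen at 5 of the 10. With active Torso the other peaks were lower than in wild type by a median of 2.24-fold, where that of all 103 final peaks was 2.20-fold. Of the 10, 1 had a lower ratio than Egfr (rank 31 of 103) and 8 had a lower ratio than ths (rank 81 of 103). The 2 that had kept more than ths were again pnt peak 1 (1.07-fold lower) and pnt peak 2 (1.25-fold lower). These are counts over a few peaks chosen with results known, and no test of the list was made.

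**Figure D5:**
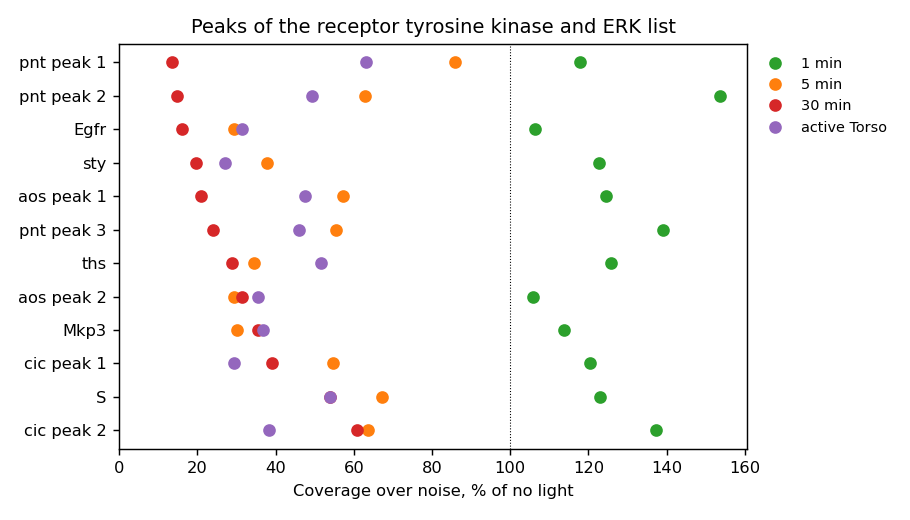
Coverage over noise of the 12 final peaks of the receptor tyrosine kinase and ERK list as a percentage of no light, for 1, 5 and 30 min of light and active Torso. Rows are peaks in order of their 30 min value, and the dotted line marks the no light level. Active Torso embryos are of another line than the no light embryos. At Egfr the 5 min (29.4%) and active Torso (31.4%) points lie together, while at ths active Torso (51.6%) lies to the right of 5 min (34.4%) and 30 min (28.8%).

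Likeness of pattern was the Euclidean distance between log2 ratios to no light over the other 5 conditions. The ratios of wild type and active Torso to no light compare different lines, so likeness also holds differences of line and library. The 5 peaks most like Egfr were bbg (distance 0.293), pdm2, CG32719, zen and fkh, among which pdm2, zen and fkh encode transcription factors of the early embryo. At bbg coverage was 3.01-fold lower after 5 min and 6.97-fold lower after 30 min, against 3.41-fold and 6.22-fold at Egfr. The 5 peaks most like ths were hkb peak 2 (distance 0.466), Nf1, RpS30, brk and CG7029, where hkb encodes a repressor of the terminal system and brk a repressor of BMP targets. At hkb peak 2 coverage was 2.14-fold lower after 5 min and 3.32-fold lower after 30 min, and 1.74-fold lower with active Torso than in wild type. The sets had no peak in common by this measure. Sets of 5 out of 103 peaks would often share none even if picked at random, so this does not set the members apart. By shares of the no light z-score, however, Nf1 was the second most like Egfr, so membership depends on the measure. In log2 ratios the distance between Egfr and ths was 1.15, where the median distance of all peaks from Egfr was 1.40 and from ths 1.17.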

How the data were processed

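The submitters' processing notes name Trim Galore, BWA 0.7.17-r1188, SAMtools, MACS2, ChIPseeker and the build dm6. Per the file headers, MACS 2.1.2 compared pooled wild type ChIP (6994179 tags) with pooled untagged ChIP (5712080 tags), with an extension of 145 bp and a q threshold of 0.01. The authors deposited the summit pileup signal, fold enrichment (a ratio), -log10 p and q values and a score. How 468 calls became 103 final peaks is not stated in the labels or headers. The values of the matrices are z-scores of depth-scaled reads, normalised on noise peaks, per the deposited contents sheet, and how replicates were combined is not stated.

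Matrix columns have no names. With the peak list's order assumed, 4 of 4 pairs of overlapping windows matched in each of 6 conditions. The z-scores lay on whole steps, read as read bases above a lowest value of 0, so that a z-score of 0 is the mean noise coverage, 2.83 to 4.33 reads. Coverage over noise is coverage divided by this mean. If a step is 1 read base, isolated runs no deeper than 1 read should have about the read length of 74 bp. This held in 2 of 2 runs in wild type, 4 of 4 after 1 min, 2 of 2 after 5 min and 3 of 4 after 30 min. It held in 0 of 1 in no light and 0 of 1 with active Torso. The step, on which the counting intervals rest, is thus an assumption there. Folds have exact conditional counting intervals on read equivalents, and ratios of ratios have normal intervals on the log scale. The local untagged level is (pileup + 1) / fold enrichment - 1. It is derived from the calls and is not a direct count at the locus. Several peaks, among them sty, brk and CG32719, shared its lowest value of 6.90, so low levels may stand at a floor. Intervals, steps and alignment were tested on simulated data (Python 3.11.15, scipy 1.17.1).

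RefSeq positions (Release 6) matched 88 of 103 peaks by gene number, each with the authors' transcript inside the gene. The members and lists were chosen with earlier results of these data known. Named were the members, pathway peaks, the 5 most alike peaks, the 3 next above and below in no light signal and nearby calls. Inputs, motifs and sequences were not analysed here.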

Additional observations from a re-analysis of the deposited data

Results flagged for a closer look

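A further MACS2 call in ths, 1209 bp downstream of the final peak and outside the final list, had a fold enrichment of 4.43 over untagged embryos, at a local untagged level of 9.0 against 15.0 at the final peak. It ranked 140 of 468 calls by fold enrichment. It was named as a signal outside the final list. Its summit lies beyond the deposited ths windows, so its response to light was not analysed. The outer 100 bp of the ths windows on that side had a coverage over noise of 1.30 in wild type, 2.15 in no light, 3.25 after 1 min, 2.22 after 5 min, 2.21 after 30 min and 0.972 with active Torso, on 6.22 to 13.9 read equivalents.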

How the results depend on the processing

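Window half-widths of 100 and 500 bp in place of 250 bp, the window maximum, alignment by shape, subtraction of flanks and 2 other scalings were tried. Of 168 member values under these, 146 stayed beyond counting error in the same direction or stayed within counting error. Some of those within counting error changed direction. An example is Egfr for 5 min against active Torso, at 0.934 in the main setting and 1.11 with 100 bp. The no light to wild type ratio no longer left 1 at Egfr with 100 bp (1.19), the maximum (1.12), flank scaling (1.15) and scaling to all peaks (1.01), nor at ths with 100 bp (1.11), the maximum (1.03) and scaling to all peaks (1.04). With the maximum, ths at 1 min (1.29) and Egfr for 30 min against active Torso (0.530) included 1. The ratio of ths to Egfr at 1 min passed 1 with 500 bp (1.23). From 5 to 30 min that ratio included 1 with 500 bp (1.29), alignment (1.52) and flanks subtracted (1.63), and for 5 min against active Torso with the same settings (0.791, 0.750 and 0.711). The causes were not tested.

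Scaling to the total of all peaks turns values into shares of the peaks' coverage. Then ths reversed to 0.989 at 1 min and to 1.28 with active Torso, was 1.35 from 5 to 30 min and 0.958 at 30 min, and Egfr was 0.837 at 1 min and 0.882 from 5 to 30 min. The ratio of ths to Egfr does not depend on scaling. Over the alternatives it ran from 1.53 to 2.31 at 30 min and from 1.53 to 2.24 with active Torso.

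Peaks at least 2-fold lower, 53 at 5 min, 82 at 30 min, 20 from 5 to 30 min and 62 with active Torso, became 4, 10, 5 and 10 with scaling to all peaks. A fold of 1.5 gave 86 at 5 min and 49 from 5 to 30 min, and a fold of 3 gave 14, 5 from 5 to 30 min and 20 with active Torso. From 5 to 30 min the count was 31 with 100 bp, 10 with 500 bp and 43 with flanks subtracted, and with active Torso 40 with 500 bp. Pathway genes with any MACS2 call within 10 kb numbered 15, against 8 with a final peak, and the share of all genes was not measured. With shares of the no light z-score, 3 of the 5 peaks most like Egfr and 2 of those most like ths were the same. No paired analysis was possible because each matrix combines the replicates, and leaving out replicates could not be run for the same reason. The read depth of each library is unknown, and counting error limits the 30 min values most.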
